A study of Homo sapiens with 4 samples.

Results

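Distal 9q is the outer end of the long arm of chromosome 9. It was taken here as every loop of the authors' high-confidence table whose first anchor starts at 120 Mb or beyond on chromosome 9 of the human genome build hg19. The rule gave 1877 of the 22680 high-confidence loops, and the comparison was made with the 642 high-confidence loops of chromosome 9 that start before 120 Mb. The stretch was chosen because its contacts were lower in the STAG2-null libraries, so that difference is described here and not tested. A673 is an Ewing sarcoma cell line that carries the EWS-FLI1 fusion. There were 2 STAG2-null libraries, made from A673 cells edited with CRISPR/Cas9 and grown from single-cell clones, and 2 libraries of wild-type A673 cells. The labels give no treatment or time for either group, and do not say whether the STAG2-null libraries came from different clones or whether the wild-type cells were cloned. Separate cultures are not stated for libraries of 1 genotype, and the spread behind each p-value may therefore be technical.

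All libraries were SMC1 HiChIP. In this assay DNA ends that lie close together in fixed nuclei are ligated, fragments bound by SMC1 are pulled down with an antibody, and each sequenced junction gives a paired-end tag (PET) that joins 2 anchors. SMC1 is a core subunit of cohesin, the ring that extrudes DNA into loops until CTCF halts it, and STAG2 is 1 of the alternative STAG subunits of that ring. CTCF is a DNA-binding protein found at most loop ends, H3K27ac is a histone mark of active promoters and enhancers, and FLI1 supplies the DNA-binding part of the fusion. A PET count rises with the number of copies of a region in the cells as well as with how often each copy is captured. Those quantities cannot be told apart in these files, and copy number was not measured.

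Counted over all anchor pairs, the STAG2-null libraries had totals of 682724 and 698002 PETs, and the wild-type libraries had 661881 and 765017. The members together had 12407 and 11524 PETs in the STAG2-null libraries, against 15659 and 17449 PETs in the wild-type libraries. Of the 1877 members, 1030 reached 20 PETs over the 4 libraries and entered the tests, and 847 did not. The median level of a member, in PETs per 1000000 PETs of its library (CPM), was 7.32 and 5.73 in the STAG2-null libraries, against 9.07 and 9.15 in the wild-type libraries. Both STAG2-null libraries thus lay below both wild-type libraries. The median length of a member, 40.6 kb between anchor midpoints, was above the 24.6 kb of the chromosome's other loops and the 23.3 kb of loops on other chromosomes. Loops over 100 kb made up 28.8% of the members, against 21.0% of the other chromosome 9 loops. The 1877 loops joined 748 anchors, of which 114 took part in at least 10 loops.

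Promoters of 5 genes at these anchors are shown, since promoters and CTCF-flagged anchors recur in the results. The promoters of NTMT1 and IER5L lie at the hub anchors with the most loops that carry a placed gene. Those of TOR2A, FIBCD1 and CARD9 hold the CTCF core, in capitals, which reads CCNNNAGGNGGC along the gene's strand in FIBCD1 and as its reverse complement, GCCNCCTNNNGG, in TOR2A and CARD9, and they lie at anchors flagged for CTCF by the authors. Sequences are from RefSeq on GRCh38.p14, run 5′ to 3′ along the gene's strand from 250 bases before to 50 bases after its start, and their coordinates do not apply to hg19.
NTMT1, chr9:129608622-129608921, plus strand: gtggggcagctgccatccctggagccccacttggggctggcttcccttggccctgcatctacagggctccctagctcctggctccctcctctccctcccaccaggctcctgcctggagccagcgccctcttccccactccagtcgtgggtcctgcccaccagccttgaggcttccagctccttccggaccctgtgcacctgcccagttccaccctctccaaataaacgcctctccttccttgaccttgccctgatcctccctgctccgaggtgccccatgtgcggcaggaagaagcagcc
IER5L, chr9:129178212-129178511, minus strand: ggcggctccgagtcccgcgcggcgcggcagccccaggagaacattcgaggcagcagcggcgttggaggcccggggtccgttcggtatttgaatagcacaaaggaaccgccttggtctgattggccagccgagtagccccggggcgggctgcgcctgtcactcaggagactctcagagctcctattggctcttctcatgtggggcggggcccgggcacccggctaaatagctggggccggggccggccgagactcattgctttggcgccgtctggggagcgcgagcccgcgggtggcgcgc
TOR2A, chr9:127735245-127735544, minus strand: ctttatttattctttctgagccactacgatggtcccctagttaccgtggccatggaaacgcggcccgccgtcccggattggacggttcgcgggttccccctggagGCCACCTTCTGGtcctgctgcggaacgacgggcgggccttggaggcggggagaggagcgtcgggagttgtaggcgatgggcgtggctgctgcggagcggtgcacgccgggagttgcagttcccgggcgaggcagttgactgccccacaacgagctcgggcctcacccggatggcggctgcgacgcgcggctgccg
FIBCD1, chr9:130939198-130939497, minus strand: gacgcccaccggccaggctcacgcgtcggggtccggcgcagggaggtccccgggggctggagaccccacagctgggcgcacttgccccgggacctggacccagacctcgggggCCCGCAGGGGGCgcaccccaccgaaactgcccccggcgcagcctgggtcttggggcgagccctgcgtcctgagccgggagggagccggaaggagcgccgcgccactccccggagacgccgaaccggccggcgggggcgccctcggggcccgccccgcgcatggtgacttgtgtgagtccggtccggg
CARD9, chr9:136373620-136373919, minus strand: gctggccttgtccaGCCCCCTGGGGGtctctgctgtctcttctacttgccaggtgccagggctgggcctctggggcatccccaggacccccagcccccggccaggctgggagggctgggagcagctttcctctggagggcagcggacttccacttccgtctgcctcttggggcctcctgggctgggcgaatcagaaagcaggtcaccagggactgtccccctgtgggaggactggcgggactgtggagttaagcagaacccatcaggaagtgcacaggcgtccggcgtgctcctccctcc
The deposited tables place 41 genes at distal 9q anchors, and 35 of them have a promoter in the RefSeq table. The CTCF core was searched on both strands and was found in 3 of the 35, against 4.64% of 35116 promoters. A pair of the GGAA units that FLI1 recognises, GGAAGGAA on either strand, was found in 0 of the 35, against 3.67% of all promoters. These windows are far shorter than the anchors, so a window without a match says nothing of the anchor.

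The question the region poses is how far the lower contacts extend and whether loops drop more than the contacts around them. Distal 9q, counted over all pairs with both anchors beyond 120 Mb, gave 4.94% of STAG2-null library 1 (95% Wilson interval 4.89 to 4.99%) and 4.28% of STAG2-null library 2 (4.23 to 4.32%). In the wild-type libraries it gave 6.39% (6.34 to 6.45%) and 6.36% (6.31 to 6.42%). The intervals of the wild-type libraries overlapped and those of the STAG2-null libraries did not, and both STAG2-null libraries lay below both wild-type libraries. Intervals cover counting error only. The rest of chromosome 9 gave 2.89 and 2.95% of the STAG2-null libraries, against 2.90 and 2.92% of the wild-type libraries. That part of the chromosome therefore showed no such gap. The ratio of distal 9q to the rest of chromosome 9 was 1.71 and 1.45 in STAG2-null libraries, against 2.20 and 2.18 in wild-type libraries. On the log2 scale this was a difference of -0.47, with an SD within genotype of 0.119 (n = 2 libraries each), and it was -0.60 without STAG2-null library 1 and -0.36 without STAG2-null library 2. With 2 libraries a group, a two-sided exact permutation test cannot give a p below 0.333. PETs that joined both sides of 120 Mb were too few to compare, at 6 and 11 in STAG2-null libraries and 9 and 13 in wild-type libraries.

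Along the arm, the lower level was present in every 1 Mb window with enough data. Of the 17 windows of distal 9q with at least 1000 PETs, both STAG2-null libraries lay below both wild-type libraries in 17, against 31.2% of the 717 such windows of the genome. The windows' median log2 ratio was -0.44, from -0.63 to -0.15. Of the 22 windows in the rest of chromosome 9, 6 had that order, and the median of the 22 was 0.00095. The windows that start at 116, 117, 118 and 119 Mb, next to the cut at 120 Mb, were among those 6. The lowest ratio lay in the window that starts at 136 Mb, with 3164 and 2517 CPM in STAG2-null libraries, against 4496 and 4282 in wild-type libraries. The densest window starts at 132 Mb and had 9014 and 8241 CPM in STAG2-null libraries, against 11573 and 11198 in wild-type libraries, a log2 ratio of -0.40. The window least affected starts at 123 Mb, with 434 and 474 CPM in STAG2-null libraries and 499 and 507 in wild-type libraries. It is also the window in which the members begin.

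**Figure D1:**
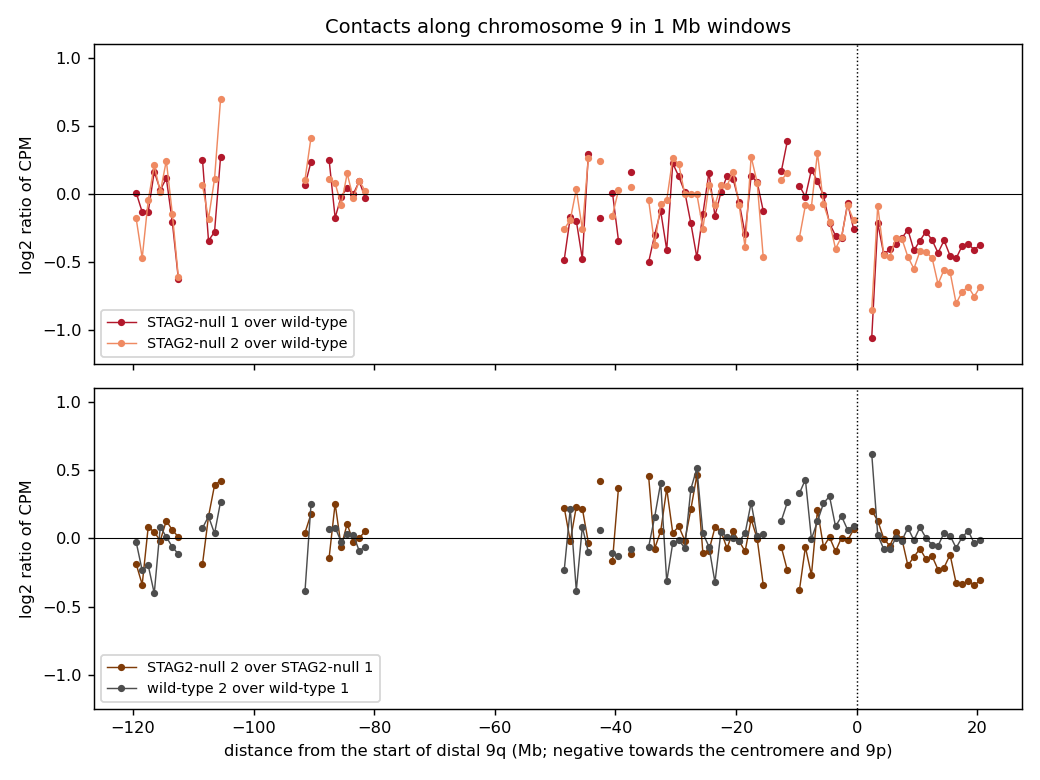
Log2 ratios of CPM in 1 Mb windows with at least 100 PETs along chromosome 9, by distance in Mb from the start of distal 9q (dotted line). Upper panel, each STAG2-null library over the wild-type libraries; lower panel, STAG2-null 2 over STAG2-null 1 and wild-type 2 over wild-type 1. Right of the line both STAG2-null libraries stay below 0, and STAG2-null 2 falls away from STAG2-null 1 towards the end of the arm.

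The inner edge of the lower stretch was not sharp. A single step between a pair of constant levels was placed at 116 Mb, with a log2 ratio of 0.03 before and -0.46 after it, and it took up 78.4% of the variation between windows. STAG2-null library 1 alone gave 115 Mb and library 2 alone gave 124 Mb. Over all pairs of a STAG2-null with a wild-type library the step lay between 115 and 124 Mb. The windows just inside that range varied in the size of the drop. In each window that starts from 115 to 119 Mb both STAG2-null libraries lay below both wild-type libraries. Those that start at 116 and 117 Mb had log2 ratios of -0.35 and -0.32, those that start at 118 and 119 Mb had -0.08 and -0.22, and those from 120 to 122 Mb held 112 PETs or fewer each. The 2 wild-type libraries also differed there, by log2 ratios of 0.09, 0.16, 0.06 and 0.09 in the windows from 116 to 119 Mb. So the threshold of the rule at 120 Mb falls inside the uncertain zone. The last high-confidence loop before it, at chr9:119255246-119259129 with chr9:119261113-119263799, had 7 and 6 PETs in STAG2-null libraries and 2 and 2 in wild-type libraries. The first loop past it, at chr9:123628445-123633418 with chr9:123636110-123642548, had 4 and 5 PETs in STAG2-null libraries and 7 and 12 in wild-type libraries.

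The 2 STAG2-null libraries parted within distal 9q. STAG2-null library 1 kept nearly 1 level: its log2 ratio to wild-type was -0.39 at 120 to 125 Mb, -0.37 at 125 to 130 Mb, -0.34 at 130 to 135 Mb and -0.40 from 135 Mb to the end. Library 2 started at the same level and then dropped, with -0.35, -0.41, -0.49 and -0.72 over the same stretches. The ratio of library 2 to library 1 was 0.04, -0.04, -0.15 and -0.31, while the ratio of wild-type library 2 to 1 stayed between -0.02 and -0.01. In shares of the library, the end from 135 Mb held 2.18 and 1.76% of the STAG2-null libraries, against 2.89 and 2.88% of the wild-type libraries. The single best step of STAG2-null 2 over STAG2-null 1 along the whole chromosome lay at 133 Mb, from -0.03 before to -0.30 after, and took up 62.1% of the variation. Fitted from 120 Mb outward, the step of that ratio lay at 136 Mb instead, with -0.13 before and -0.33 after it, and 2 steps along the chromosome lay at 128 and 136 Mb with levels of 0.03, -0.15 and -0.33. The place where the STAG2-null libraries parted was thus not fixed to 1 point. For wild-type 2 over wild-type 1 the best step took up 7.25%. A fit of 2 steps to STAG2-null over wild-type placed the second at 133 Mb too, with levels of -0.37 before and -0.54 after it. Pairs were then split by the side of 133 Mb on which their anchors lay. Pairs with both anchors from 124 to 133 Mb had a log2 ratio of STAG2-null 2 to STAG2-null 1 of -0.10, pairs with both anchors after 133 Mb had -0.30, and the 2120 pairs that joined both sides also had -0.30, with a counting SE of 0.078. So within-genotype spread is not small in this region, and values over the outer stretch depend on which STAG2-null library is read.

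Distal 9q contacts were lower in every class of PET count and of length, and not in strong loops alone. Pairs seen once over the 4 libraries had a log2 ratio of STAG2-null to wild-type of -0.52, pairs of 2 PETs -0.50, pairs of 3 to 4 PETs -0.50, pairs of 5 to 9 PETs -0.48, pairs of 10 to 19 PETs -0.47 and pairs of 20 PETs or more -0.41. On other chromosomes the same classes also shifted upward with PET count. Set against those classes elsewhere, distal 9q was lower by nearly the same amount in each, with log2 differences between -0.49 and -0.55. STAG2-null library 1 gave -0.35 to -0.43 over the classes and library 2 gave -0.60 to -0.69. By distance between anchors, the log2 ratio was -0.34 at 5 to 20 kb, -0.50 at 20 to 50 kb, -0.57 at 50 to 100 kb, -0.54 at 100 to 200 kb, -0.46 at 200 to 500 kb and -0.47 beyond 500 kb. The dip at middle distances was present elsewhere as well, and relative to other chromosomes distal 9q was lower by -0.44 to -0.58 in all 6 classes. The rest of chromosome 9 differed from other chromosomes by -0.06 to 0.05 over the same classes. High-confidence loops took 37.7 ± 1.27% of the region's PETs in STAG2-null libraries, against 36.4 ± 0.815% in wild-type libraries (SD, n = 2 each). The individual shares were 36.8 and 38.6% in STAG2-null libraries and 37.0 and 35.8% in wild-type libraries, and the genotypes overlapped.

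**Figure D2:**
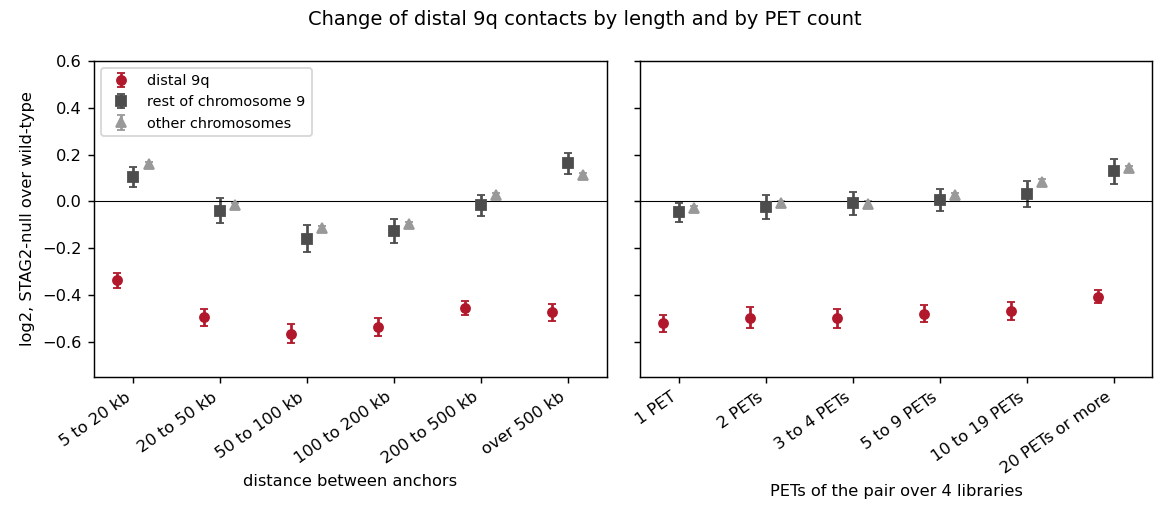
Log2 ratio of CPM, STAG2-null over wild-type, for pairs of anchors grouped by distance (left) and by PETs over the 4 libraries (right), in distal 9q, the rest of chromosome 9 and the other chromosomes. Bars are 95% intervals of counting error. In every class distal 9q lies below both others, by a similar distance.

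Loop by loop, the members were lower in STAG2-null cells as a body and few passed the test. In edgeR's quasi-likelihood test over all 11872 anchor pairs with at least 20 PETs, 9 of 1030 members were lower and 0 higher at a Benjamini-Hochberg adjusted p under 0.05. Over all pairs tested, 0.11% were called lower and 0.0842% higher. At an unadjusted p under 0.05, 182 members were lower and 4 higher, against 4.75% and 4.84% of all pairs. Since the rule used this contrast, nothing is read from those shares. Among the tested members 850 had a log2 change below 0, against 50.8% of all pairs, and their median was -0.51, against -0.04 over all pairs and 0.07 over the 324 tested loops in the rest of chromosome 9. Over the whole table of 1877 members, 753 had both STAG2-null libraries below both wild-type libraries, against 18.1% of all high-confidence loops, and 96 had both above, against 20.6%. Of these 9, 3 were still called without STAG2-null library 1, beside 2 other members, 1 without STAG2-null library 2, and 0 without either wild-type library. DESeq2 called 0 members and also 0 of all pairs. At its unadjusted p under 0.05, 38 members were lower and 0 higher, against 0.708% and 0.48% of all pairs.

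A separate fit asked which loops depart from the contacts around them. It scaled each loop to the sparse pairs, those of at most 4 PETs over the 4 libraries, in its own 10 Mb window. In that fit no member was called by edgeR in either direction at an adjusted p under 0.05, against 0% of all pairs called lower and 0.0337% called higher. At an unadjusted p under 0.05, 18 members were lower, against 1.66% of all pairs, and 47 were higher, against 6.33% of all pairs. The members' median log2 change was 0.09, against 0.18 over all pairs and 0.15 over the loops in the rest of chromosome 9. Window scaling moved the median of all pairs to 0.18, against -0.04 with library scaling, and changes are to be read relative to it. The medians by length ran in the same order as elsewhere: 0.21 for the 433 members of 5 to 20 kb, 0.02 for 236 of 20 to 50 kb, -0.07 for 148 of 50 to 100 kb, -0.01 for 120 of 100 to 200 kb and 0.18 for 91 of 200 to 500 kb. On other chromosomes those medians were 0.26, 0.07, -0.04, 0.06 and 0.22. Members between 130 and 135 Mb had a median of 0.15 and those from 135 Mb had 0.04.

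**Figure D3:**
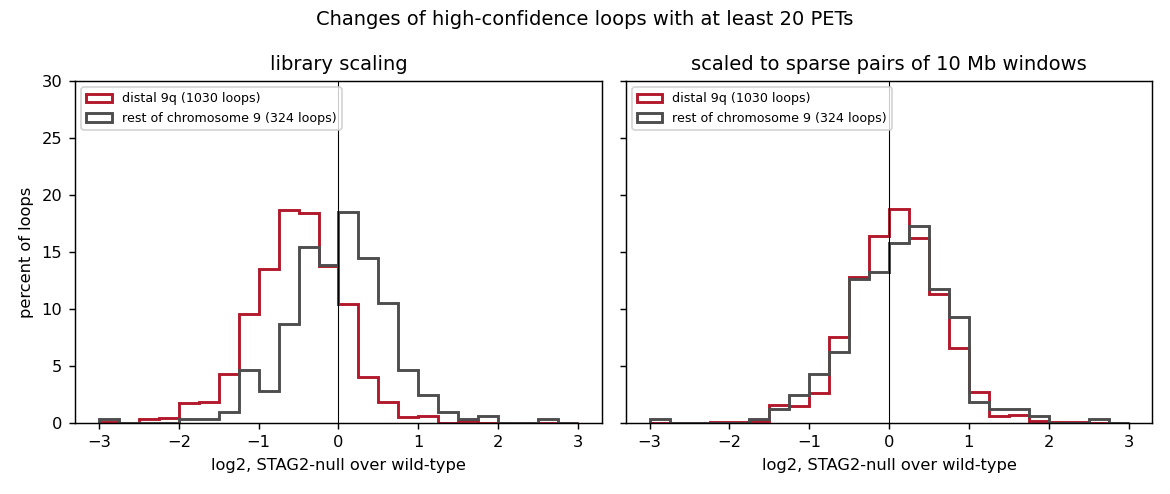
Percent of tested high-confidence loops by log2 change, STAG2-null over wild-type, in bins of 0.25, for distal 9q and the rest of chromosome 9. With library scaling (left) the distal 9q curve is shifted to the left, with a median of -0.51; scaled to sparse pairs of 10 Mb windows (right) the curves nearly coincide, with medians of 0.09 and 0.15.

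Of the 8 strongest members 6 lay in a cluster of broad anchors around the window that starts at 132 Mb, in which 361 loops begin, and the other two lay at QRFP and RXRA. The anchor at chr9:132073682-132119020, flagged by the authors for CTCF, FLI1 and H3K27ac and with no gene placed, joined 49 loops. It had 1065 and 880 CPM in STAG2-null libraries, against 1373 and 1414 in wild-type libraries. The groups did not overlap, and the log2 ratio of -0.52 was close to that of the region. At chr9:132362222-132384988, the anchor of NTMT1, a methyltransferase of protein N-termini, and of C9orf50 joined 45 loops and had 1003 and 901 CPM in STAG2-null libraries, against 1207 and 1210 in wild-type libraries. The anchor of IER5L at chr9:131928426-131949432 joined 44 loops, with 779 and 625 CPM in STAG2-null libraries and 905 and 970 in wild-type libraries. Both were lower by less than the region as a whole, with log2 ratios of -0.34 at NTMT1 and -0.42 at IER5L. The 1 Mb windows that hold them had -0.40 and -0.35, so the IER5L anchor was lower than its own window. The anchor at chr9:132240582-132270109 joined 43 loops, and its log2 ratio was -0.51. The anchor at chr9:132152633-132180560, flagged for H3K27ac and not for CTCF, joined 32 loops and had the lowest ratio of the 6 hubs, -0.62. It had 630 and 615 CPM in STAG2-null libraries, against 938 and 980 in wild-type libraries. The remaining hub, at chr9:140109879-140141513 near the end of the arm, holds the promoters of TUBB4B, a beta-tubulin, and RNF208, a RING finger protein, among others, and joined 38 loops with a log2 ratio of -0.54.

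Estimated changes of loops between these hubs varied in size, and differences between loops were not tested. The loop from the 49-loop anchor to the one at chr9:132152633-132180560 had 43 and 43 PETs in STAG2-null libraries, against 71 and 99 in wild-type libraries, and was called lower by edgeR (log2 change -1.02 ± 0.242 SE, adjusted p = 0.028). The loop from chr9:132240582-132270109 to the NTMT1 anchor had 30 and 33 PETs in STAG2-null libraries, against 61 and 69 in wild-type libraries (edgeR log2 change -1.09 ± 0.263, adjusted p = 0.034). From the same anchor to chr9:132309992-132322566 there were 15 and 26 PETs in STAG2-null libraries, against 37 and 56 in wild-type libraries (edgeR log2 change -1.22, adjusted p = 0.034). Counts of these 3 loops did not overlap between genotypes, which carries no weight, since the loops were picked by this contrast. After window scaling their log2 changes were -0.41, -0.47 and -0.60, with edgeR adjusted p-values of 0.73, 0.70 and 0.65. The loop with the most PETs of all members, from the 49-loop anchor to chr9:132240582-132270109, had 56 and 42 PETs in STAG2-null libraries and 80 and 85 in wild-type libraries, and was not called (edgeR adjusted p = 0.16). From the 49-loop anchor to the NTMT1 anchor there were 40 and 31 PETs in STAG2-null libraries and 65 and 55 in wild-type libraries, also not called (edgeR adjusted p = 0.20). By contrast, the IER5L anchor met the NTMT1 anchor 434.7 kb away with 42 and 42 PETs in STAG2-null libraries and 49 and 55 in wild-type libraries. From the NTMT1 anchor to its neighbour at chr9:132385702-132394374 there were 54 and 51 PETs in STAG2-null libraries and 52 and 62 in wild-type libraries. Raw counts of that last loop overlapped between genotypes. For these 2 loops the log2 changes were -0.35 and -0.16 with library scaling, and turned to 0.26 and 0.45 once scaled to the window, none of them called by edgeR. The median of all pairs also moved, from -0.04 to 0.18, so part of the turn is that shift.

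**Figure D4:**
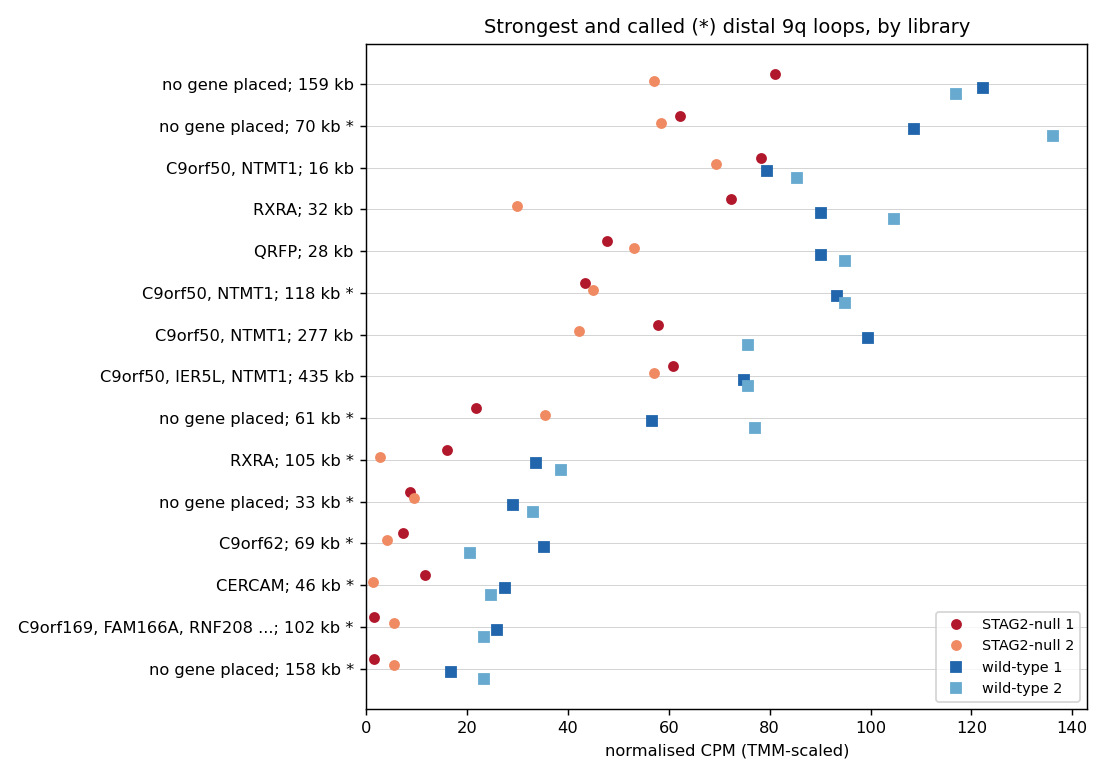
Normalised CPM (scaled by TMM) of the 8 strongest members and the 9 called members (asterisk; 2 loops are both), named by placed genes and length, with 1 point per library. STAG2-null points lie left of wild-type points in each loop, by a wide margin in the called loops and a narrow one in the 16 kb NTMT1 loop.

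The other 6 called loops had fewer PETs than these 3. RXRA encodes the retinoid X receptor alpha, the common partner of many nuclear receptors. Its promoter anchor at chr9:137203756-137246410 met chr9:137322869-137336978 with 11 and 2 PETs in STAG2-null libraries, against 22 and 28 in wild-type libraries (edgeR log2 change -1.97 ± 0.426, adjusted p = 0.015). The same anchor met its neighbour at chr9:137247899-137265386 with 50 and 22 PETs in STAG2-null libraries and 59 and 76 in wild-type libraries, not called (edgeR adjusted p = 0.087). Both RXRA loops had fewer PETs in STAG2-null library 2 than in library 1, and neither overlapped with the wild-type counts. Near the end of the arm, chr9:140021026-140025758 met the TUBB4B and RNF208 anchor with 1 and 4 PETs in STAG2-null libraries, against 17 and 17 in wild-type libraries (edgeR log2 change -2.75 ± 0.585, adjusted p = 0.015). At C9orf62 the loop from chr9:138157485-138167041 to chr9:138220657-138242758 had 5 and 3 PETs in STAG2-null libraries, against 23 and 15 in wild-type libraries. A loop of 158 kb between 2 CTCF-flagged anchors, chr9:133581899-133585385 and chr9:133731713-133750767, had 1 and 4 PETs in STAG2-null libraries, against 11 and 17 in wild-type libraries. In each of these the wild-type counts were all above the STAG2-null counts, as selection by the same contrast made likely. At CERCAM the loop from chr9:131121995-131128857 to the promoter anchor had 8 and 1 PETs in STAG2-null libraries, against 18 and 18 in wild-type libraries. The last call, chr9:132960155-132975619 to chr9:132994464-133007022, had 6 and 7 PETs in STAG2-null libraries, against 19 and 24 in wild-type libraries. Adjusted p-values of these 4 loops by edgeR were between 0.021 and 0.040.

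The 5 members with the smallest p for a drop beyond their surroundings were the loops of TUBB4B and RNF208, C9orf62, RXRA to chr9:137322869-137336978, the 158 kb CTCF pair and CERCAM. After window scaling their log2 changes were -2.07, -1.67, -1.37, -1.87 and -1.42, and their edgeR adjusted p-values 0.31, 0.38, 0.39, 0.43 and 0.48, so none was called as departing. All 5 had been called with library scaling, so the list is not independent of that contrast. In the other direction, the 5 members with the smallest p after window scaling all had more PETs in STAG2-null libraries. The loop from chr9:137527621-137538444 to chr9:137539724-137551015 had 13 and 18 PETs in STAG2-null libraries, against 7 and 8 in wild-type libraries. The loop from chr9:130803846-130807511 to chr9:130811493-130813064 had 9 and 8 PETs in STAG2-null libraries, against 1 and 4 in wild-type libraries. From chr9:132350600-132354035 to chr9:132356231-132361315, next to the NTMT1 anchor, there were 14 and 9 PETs in STAG2-null libraries, against 5 and 5 in wild-type libraries. These 3 loops were 12.3 kb long or shorter. The genotypes did not overlap in any of them, which carries no weight in loops picked for a small p. The loop from chr9:131892910-131896686 to the CTCF, FLI1 and H3K27ac-flagged anchor at chr9:131898310-131919314 had 23 and 33 PETs in STAG2-null libraries, against 19 and 20 in wild-type libraries. The only long one joined chr9:131963197-131967420 to the NTMT1 anchor 408.3 kb away, with 12 and 4 PETs in STAG2-null libraries, against 3 and 2 in wild-type libraries. Window-scaled log2 changes of the 5 were 1.09 to 2.27, with edgeR adjusted p-values of 0.31 to 0.38, so these also were not called. Without window scaling they were 0.47 to 1.67 on the log2 scale.

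In the authors' deposited table of 650 differential loops, 105 are members, 104 of them stronger in wild-type and 1 stronger in STAG2-null cells. The authors' adjusted p-values in that table run up to 0.0998, a looser limit than the 0.05 used here. Over all high-confidence loops the authors' deposited table calls 1.32% stronger in wild-type and 1.54% stronger in STAG2-null cells. The 1 loop stronger in STAG2-null cells is the 408.3 kb contact of the NTMT1 anchor above. Its adjusted p was 0.0997 in the authors' deposited table and 0.42 in edgeR with library scaling. At least 1 anchor was flagged for CTCF in 85 of the 105, for H3K27ac in 79, for FLI1 in 22 and for a promoter in 56, per the authors' deposited table. Among the 545 loops called elsewhere in the authors' deposited table, those counts were 391, 454, 147 and 261. The sets also differed in direction, since 196 of the loops elsewhere were stronger in wild-type and 349 in STAG2-null cells. They differed in length too, with a median of 47.07 kb for the 105 and 17.995 kb elsewhere. Whether flags differ by region among loops of the same direction and length was not tested. Of the 105, 91 were tested here. Their median log2 change was -1.40 with library scaling and -0.75 scaled to the window. In the window-scaled fit 90 of the 91 stayed below 0, 18 had an unadjusted p under 0.05 and 0 passed the adjusted threshold in edgeR. They were selected for low values on these same libraries, so these values are a description.

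Sums over anchors gave larger counts. Of the 748 anchors 703 had at least 100 PETs over all their pairs. In 569 of these 703 both STAG2-null libraries lay below both wild-type libraries, against 23.1% of all such anchors of the genome, and in 3 both lay above, against 27.3%. The median log2 ratio was -0.47, from -1.13 to 0.47, and 24 anchors were above 0. The lowest was at chr9:136557064-136560194, with 26 and 25 PETs in STAG2-null libraries, against 47 and 69 in wild-type libraries. The highest was at chr9:133514295-133517111, with 35 and 25 PETs in STAG2-null libraries, against 19 and 26 in wild-type libraries. These extremes were picked from 703 anchors and rest on small counts.

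Promoter anchors could be named for genes that the authors' table of differential loops places, and only for those. Of a list of 66 genes of 9q33 and 9q34, 15 were placed at a distal 9q anchor, and for all 15 both STAG2-null libraries lay below both wild-type libraries. Since a gene was placed because an anchor of it had a differential loop, that count carries no independent weight. TUBB4B and RNF208 share an anchor. Among genes of transcription and chromatin, RXRA had 584 and 377 CPM in STAG2-null libraries, against 761 and 782 in wild-type libraries. NACC2, a BTB-domain repressor, had 502 and 423 in STAG2-null libraries, against 681 and 681 in wild-type libraries. The changes in this group spanned a wide range. BRD3, a BET-family reader of acetylated histones, had 127 and 128 CPM in STAG2-null libraries, against 145 and 173 in wild-type libraries. SET, a histone chaperone and phosphatase inhibitor, had 190 and 199 in STAG2-null libraries, against 230 and 226 in wild-type libraries. Its log2 ratio of -0.23 was the smallest of the 15, against -0.68 at RXRA. The 1 Mb windows that hold SET and RXRA differed too, with -0.35 and -0.54.

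Among genes of signalling, QRFP, the precursor of a neuropeptide, had the largest change. Its anchor at chr9:133759486-133779028 had 277 and 222 CPM in STAG2-null libraries, against 447 and 463 in wild-type libraries, a log2 ratio of -0.87. Its strongest loop, to the CTCF-flagged anchor at chr9:133731713-133750767, had 33 and 39 PETs in STAG2-null libraries and 59 and 69 in wild-type libraries, and was not called (edgeR adjusted p = 0.15). QRFP and RXRA lay in the outer stretch where STAG2-null library 2 was lower, with log2 ratios of -0.72 and -0.40 in library 1, against -1.03 and -1.03 in library 2. VAV2 had 233 and 208 CPM in STAG2-null libraries, against 364 and 371 in wild-type libraries. FIBCD1, a membrane receptor that binds chitin, had 189 and 160 in STAG2-null libraries, against 293 and 263 in wild-type libraries. The anchors of QRFP, RXRA, VAV2 and FIBCD1 were all lower than the median anchor of the region. They lie in windows that start at 133, 136 and 137 Mb, whose log2 ratios were -0.54, -0.63 and -0.54. CDK9, the kinase of the elongation factor P-TEFb, had 246 and 261 CPM in STAG2-null libraries, against 319 and 342 in wild-type libraries. Its smaller change of -0.38 was also that of its window, which starts at 130 Mb and had -0.38. CERCAM had 176 and 140 in STAG2-null libraries, against 230 and 221 in wild-type libraries.

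Among genes of metabolism and other roles, ASS1, the argininosuccinate synthase of the urea cycle, had 215 and 169 CPM in STAG2-null libraries, against 305 and 301 in wild-type libraries. TOR2A, of the torsin family of ATPases, had 173 and 123 in STAG2-null libraries, against 246 and 229 in wild-type libraries. Both ratios, -0.66 and -0.68, were below the region's median. The windows that hold them start at 133 and 130 Mb and had -0.54 and -0.38. Both anchors were thus lower than their windows, while CDK9, in the same window as TOR2A, was not. TUBB4B and RNF208 had 517 and 433 CPM in STAG2-null libraries, against 703 and 680 in wild-type libraries. STRBP, an RNA-binding protein of spermatids, was placed by elimination at an anchor with only 19 and 19 PETs in STAG2-null libraries, against 19 and 31 in wild-type libraries. The 3 anchors whose promoters hold the CTCF core letters had log2 ratios of -0.68 at TOR2A, -0.67 at FIBCD1 and -0.66 at CARD9. Among promoters without the core, ratios were -0.74 at VAV2, -0.68 at RXRA and -0.66 at ASS1, while others such as SET changed less. Most placed promoter anchors were flagged for CTCF, and that of RXRA was not. A link between the core and the change was not tested. At CARD9, an adaptor of innate immune signalling that shares its anchor with DNLZ, the counts were 213 and 129 PETs in STAG2-null libraries, against 253 and 308 in wild-type libraries.

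**Figure D5:**
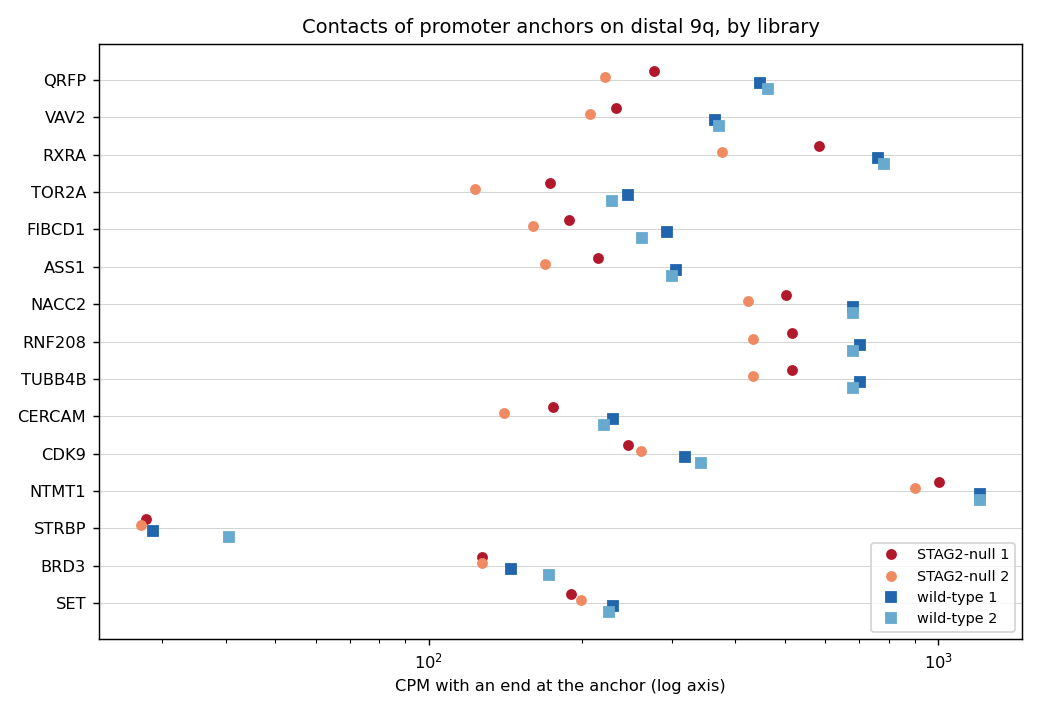
CPM with an end at the promoter anchor of each of the 15 listed genes placed on distal 9q (log axis), 1 point per library, ordered from the largest to the smallest log2 change. STAG2-null points lie left of wild-type points for every gene, and the log2 ratio of the genotypes is largest at QRFP (-0.87) and smallest at SET (-0.23). TUBB4B and RNF208 share an anchor.

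Distal 9q was not the only long stretch with lower contacts in STAG2-null libraries. The log2 ratio was -0.47 over distal 9q, -0.32 over chromosome 2 beyond 170 Mb, -0.36 over chromosome 4 and -0.43 over chromosome 20 up to 30 Mb. Over those 3 stretches STAG2-null library 1 gave -0.35, -0.38 and -0.42 and library 2 gave -0.30, -0.33 and -0.44, so the libraries were close to each other there. Over distal 9q they gave -0.37 and -0.58. The ratio of STAG2-null 2 to STAG2-null 1 was -0.21 over distal 9q and between -0.02 and 0.05 over the others, a difference for which 2 libraries a group allow no test. These 3 stretches are not the whole background. In 1 Mb windows with at least 1000 PETs, that log2 ratio ran from -0.34 to 0.13 in distal 9q (SD 0.146). On other chromosomes it ran from -0.48 to 1.67 (SD 0.157), so windows with a gap between the STAG2-null libraries occur elsewhere too.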

How the data were processed

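The deposited files of each library hold counts of PETs per anchor pair with a p-value, and per the submitters' processing notes HiC-Pro and hg19 were used, with versions, loop caller settings and the authors' differential test not given in the sources used here. Per the file headers, the high-confidence loops were scored with Mango, and the authors' deposited table of differential loops carries log2 changes, which run wild-type over STAG2-null, and adjusted p-values. File starts were taken as counted from 0 and are printed as counted from 1.

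Counts of the 4 libraries were joined by anchor pair. Pairs with at least 20 PETs (11872) were tested with edgeR 4.0.16 in R 4.3.3 (glmQLFit and glmQLFTest, TMM factors, genotype only, Benjamini-Hochberg over all pairs, threshold 0.05). A further fit replaced library sizes with the sparse PETs of each 10 Mb window (windows under 3000 such PETs took their chromosome's). DESeq2 1.42.0 was an alternative. Ratios of regions used PETs per 1000000 of the library, without TMM. Steps were fitted by PET-weighted least squares to windows with at least 100 PETs. Scripts were tested on simulated data. With 200 of 11872 simulated pairs changed by 2 on the log2 scale, edgeR with library scaling recovered 55% and made 4 false calls. A loop that was not called may therefore still differ. Libraries of a genotype differed by more than counting noise (chi-square over degrees of freedom 1.19 for STAG2-null and 1.07 for wild-type). Named loops were the 8 with the most PETs, those called, and 5 per direction with the smallest p after window scaling, with the 6 anchors of most loops and the listed genes the tables place. The members and lists were chosen with earlier results of these data known. No hg19 sequence was used here.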

Additional observations from a re-analysis of the deposited data

How the results depend on the processing

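The regional difference kept its direction in all 10 alternatives, and the loop calls did not hold. The log2 ratio of distal 9q to the rest of chromosome 9, -0.47, ranged from -0.60 to -0.36 when each library was left out, and from -0.53 to -0.47 with sparse pairs, high-confidence pairs, pairs at least 20 kb apart, other chromosomes as the denominator, or the boundary moved to 116 or 124 Mb (boundaries chosen after seeing the data). The step at 116 Mb lay at 115 to 124 Mb when a library was left out, and at 115 to 116 Mb otherwise, also with windows of at least 1000 PETs, chosen after seeing the data. Against 9 members called lower, there were 0 with pairs of at least 10 PETs, 4 with no count filter and 1 with plain library totals. There were 0 with scaling per chromosome and 0 with DESeq2. Over all pairs tested, the shares called lower in these settings were 0%, 0.022%, 0.00842%, 0.00842% and 0%, in the same order. Scaling per chromosome used sparse pairs of the whole chromosome, and distal 9q held 59.1 to 68.8% of the chromosome 9 PETs of a library. That setting therefore removes much of the regional drop by design. The median log2 change with it was -0.11 for members and 0.46 for tested loops in the rest of chromosome 9. Calls were also fewer when a library was left out, and the cause was not tested. All of these calls were among the 9 except 2 of the 5 without STAG2-null library 1. With the replicate number as a block 10 members were called lower, the 9 among them, against 0.126% of all pairs. The labels do not say whether the numbers pair the samples. The correlation of deviations of STAG2-null 1 with wild-type 1 was 0.0023, which cannot decide it, since counting noise makes up most of those deviations. No alternative with 2 libraries of each genotype called a member higher, against 0 to 0.0758% of all pairs. At an unadjusted p under 0.05, 0 to 17 members were higher in them, against 0.48 to 6.57% of all pairs. After window scaling the count was 0 in both directions in all alternatives with 2 libraries of each genotype. Over all pairs, 0 to 0.00842% were called lower and 0 to 0.059% higher in them. At an unadjusted p under 0.05, 18 to 35 members were lower, against 1.58 to 2.07% of all pairs, and 44 to 63 were higher, against 4.19 to 6.35%. Window scaling turned the loop of the IER5L and NTMT1 anchors to 0.26 and the 16 kb NTMT1 loop to 0.45 on the log2 scale. The median of all pairs in that fit was 0.18. The other named loops kept their direction with window scaling. All named loops kept it with DESeq2, with the replicate block and without each library. Over all pairs, 13 were lower and 10 higher with library scaling, against 0 lower and 4 higher with window scaling. Members under 20 PETs entered only the fits with a lower count minimum or none.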
